A study of Mus musculus with 26 samples.

Results

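The ligands of the vascular endothelial growth factor (VEGF) family, their receptor tyrosine kinases and the neuropilin co-receptors were followed as 9 genes in E9.5 mouse embryos that lacked *Traf7*. The genes were taken by gene name. They were the ligands *Vegfa*, *Vegfb*, *Vegfc* and *Pgf*, the receptors *Flt1*, *Kdr* and *Flt4*, and the neuropilins *Nrp1* and *Nrp2*. All 9 were among the 54532 genes of both expression tables, and all 9 passed the filter on low values in both.

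RNA was sequenced from whole embryos freed of the yolk sac, on a C57BL/6 background and with no treatment. The GLOko embryos (n = 6) carried a *Traf7* deletion in all tissues, made with *E2a-Cre*, a transgene driven by the adenovirus EIIa promoter that is active in the early embryo. They were set against WT embryos (n = 6). The ECko embryos (n = 7) were *Traf7* fl/fl;*Tie2-Cre*+, and they were set against EChet embryos (n = 7), *Traf7* fl/+;*Tie2-Cre*+, so that both groups carried the Cre transgene and lost at least a single copy of *Traf7* wherever it acted. *Tie2-Cre* acts in early endothelium and also in hematopoietic cells, which limits ECko as a model of endothelial loss alone. The comparisons ask how expression changes when *Traf7* is lost everywhere and when it is lost in the *Tie2* lineages.

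VEGF-A is the main growth factor of embryonic endothelium, and mouse embryos that lack a single *Vegfa* allele die in mid-gestation with defective vessels. It binds the receptors encoded by *Kdr*, which carries most of the signal, and by *Flt1*, which binds it tightly, signals weakly and has a soluble form that holds the ligand away from the other receptor. VEGF-B and placental growth factor (*Pgf*) bind the *Flt1* product, VEGF-C binds the *Flt4* product, and neuropilins present VEGF to the receptors and also bind class 3 semaphorins. *Vegfa* and *Flt1* are textbook targets of the hypoxia-inducible factors (HIF).

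Levels are given as deposited FPKM, fragments counted per kilobase of gene and corrected for the size of the library. Levels of different genes are set side by side within an embryo, but such comparisons depend on the length used. Each gene had a single length, for instance 1605 bases for *Vegfb* and 13504 for *Flt1*. Transcript forms of a gene, such as the soluble form of *Flt1*, are not told apart. Reads in genes ranged from 16913832 to 19491098 in GLOko, 16662293 to 23877092 in WT, 18424569 to 25364652 in ECko and 17937321 to 24765617 in EChet embryos, and the least covered of the 9 genes, *Pgf*, rested on 48 to 163 reads per library. *Traf7* averaged 2.41 ± 0.514 FPKM in GLOko and 18.3 ± 3.59 FPKM in WT embryos (SD, n = 6 each), and 17.3 ± 2.21 FPKM in ECko and 20.5 ± 1.37 FPKM in EChet embryos (SD, n = 7 each). Several libraries stood apart. WT 4 had 11.1 FPKM of *Traf7*, against a WT median of 19.6 FPKM. At equal read number GLOko 1, GLOko 6 and GLOko 2 had 16828, 17015 and 18636 detected genes, against 19263 to 19719 in WT embryos. Heart muscle markers summed to only 17.2 FPKM in GLOko 1 and 51.1 FPKM in WT 4, where the medians were 1186 FPKM in GLOko and 641 FPKM in WT embryos, and to 53.7 FPKM in ECko 3, where the ECko median was 618 FPKM. GLOko 5 held 543 FPKM of yolk sac and gut endoderm markers, against a GLOko median of 17.4 FPKM.

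*Vegfb* was the most abundant of the 9 transcripts and *Pgf* the least in each of the 4 groups, and the genes between them changed places. In WT embryos the order below *Vegfb* was *Nrp2*, *Kdr*, *Vegfa*, *Vegfc*, *Nrp1*, *Flt4* and *Flt1*. In GLOko embryos *Vegfa* stood second, although it exceeded *Nrp2*, the next in order, in only 2 of 6 embryos. *Flt1* stood above *Flt4* in GLOko embryos (in 4 of 6), and below it in WT (5 of 6), ECko (5 of 7) and EChet embryos (7 of 7). The 2 tables were normalized separately, so levels are compared within a table only.

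**Figure D1:**
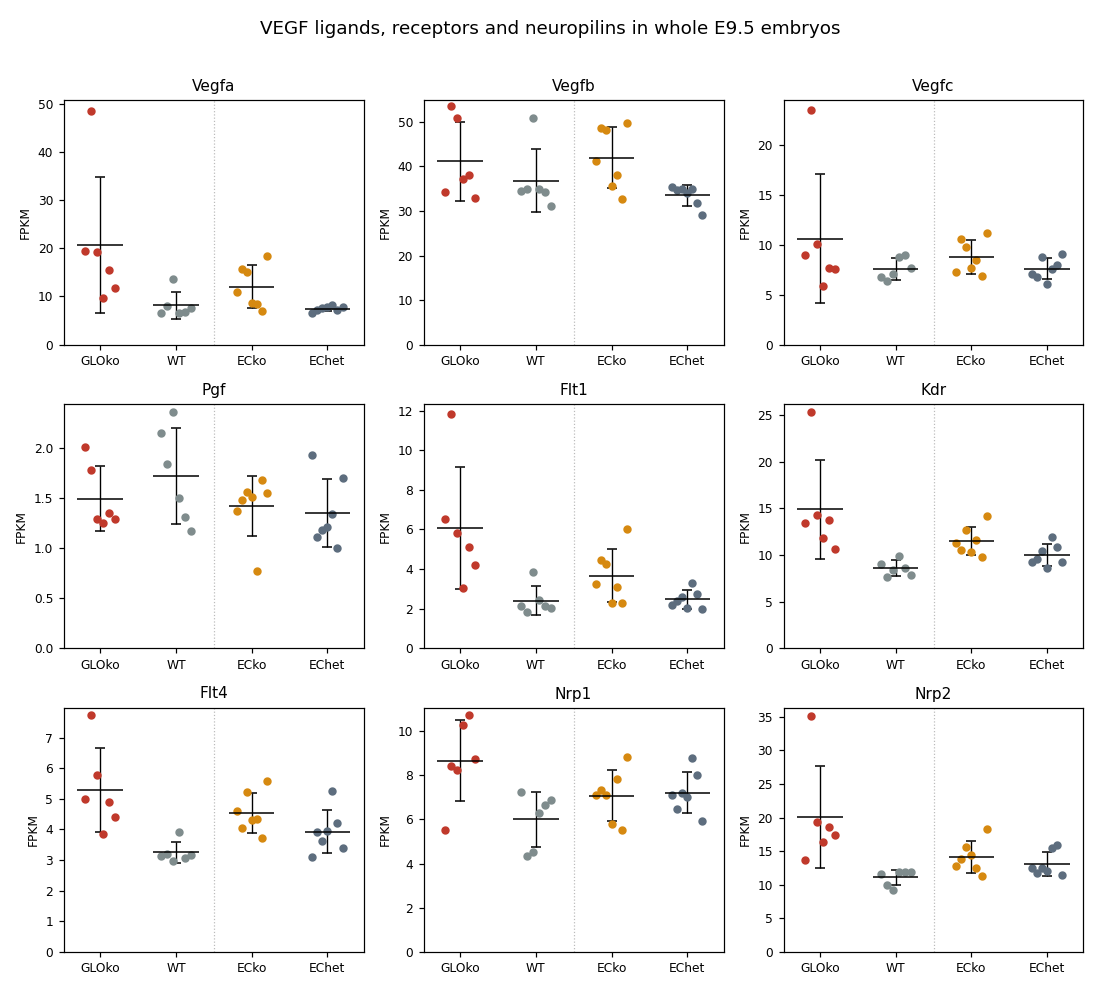
FPKM of each of the 9 genes (vertical axes, linear, from 0) in every embryo of the 4 groups (horizontal axes). Points are embryos, the horizontal lines are group means and the bars are SD. For *Kdr* and *Nrp2* the 6 GLOko embryos all lie above the 6 WT embryos, and GLOko 2 is the highest point of its group in 7 of 9 panels.

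HIF binds a short core, ACGTG or GCGTG. The 250 bases before start sites of *Vegfa* and of *Flt1* and *Kdr*, whose products bind VEGF-A, are shown with each match to that core on either strand in capitals. The sequences are RefSeq's on GRCm38.p6, the build of mm10, and all are on the minus strand and read 5′ to 3′, *Vegfa* at chr17:46032378-46032627, *Flt1* at chr5:147726012-147726261 and *Kdr* at chr5:75978456-75978705.
Vegfa: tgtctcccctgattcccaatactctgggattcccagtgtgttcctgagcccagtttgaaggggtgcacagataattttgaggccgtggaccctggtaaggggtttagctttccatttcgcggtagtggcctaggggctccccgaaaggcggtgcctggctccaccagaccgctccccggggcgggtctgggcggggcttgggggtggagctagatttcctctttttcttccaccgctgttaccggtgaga
Flt1: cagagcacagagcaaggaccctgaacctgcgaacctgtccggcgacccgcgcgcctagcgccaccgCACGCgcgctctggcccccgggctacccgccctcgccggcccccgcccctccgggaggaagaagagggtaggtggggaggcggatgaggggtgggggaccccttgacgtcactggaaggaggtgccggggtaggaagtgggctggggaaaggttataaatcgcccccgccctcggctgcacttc
Kdr: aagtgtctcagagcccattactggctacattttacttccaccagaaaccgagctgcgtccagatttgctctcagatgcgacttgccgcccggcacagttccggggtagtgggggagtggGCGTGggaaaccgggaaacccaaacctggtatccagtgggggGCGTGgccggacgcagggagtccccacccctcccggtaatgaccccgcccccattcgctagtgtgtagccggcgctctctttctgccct
No match lay before this *Vegfa* start, 1 lay 184 bases before the *Flt1* start, and 2 lay 131 and 89 bases before the *Kdr* start. Among the other genes there were 2 matches before the starts of *Vegfb* and *Nrp2*, 1 before those of *Nrp1* and the first *Pgf* start, 0 before those of *Vegfc*, *Flt4* and the second *Pgf* start, and 2 before a second *Vegfa* start further downstream. The windows of the second *Vegfa* start, *Flt4*, *Nrp1* and both *Pgf* starts lay inside the annotated gene, and that of *Nrp2* in part. Matches in these windows may therefore lie in transcribed sequence. Such letters were found in 38.6% of 32851 promoter windows of this length, and 2 or more in 16.7%, and both the genes described below as higher in GLOko embryos and the others had starts with and without them. The HIF site known for *Vegfa* lies further upstream than the window, and the absence of a match says only that the letters were not in it.

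Loss of *Traf7* in all tissues went with more transcript of *Vegfa* and of all 3 receptors and *Nrp2*. Of the 9 genes, 5 were called higher in GLOko than in WT embryos and 0 lower, where called means an adjusted p of 0.05 or less in limma over all 17573 genes tested. Over all genes 10.4% were called in either direction, 5.42% higher and 5.01% lower. The median log2 fold change of the 9 genes was 0.67, against 0.01 for all genes tested. The 2 genes whose groups did not overlap, *Kdr* and *Nrp2*, compare with 3.90% of all genes that were higher in every GLOko embryo.

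Among the ligands, *Vegfa* ranged from 9.77 to 48.6 FPKM with a median of 17.4 in GLOko embryos, against 6.47 to 13.6 FPKM with a median of 7.15 in WT embryos. GLOko 2 was far above the others and WT 3 was far above the other WT embryos, so that 4 of 6 GLOko embryos lay above every WT embryo. *Vegfa* was called higher in GLOko, with a log2 fold change of 1.20 (SE 0.33, adjusted p = 0.0365). The call was lost when any of 7 single libraries (GLOko 1 or 3, or WT 1, 2, 4, 5 or 6) was left out, with adjusted p between 0.0605 and 0.0795 and log2 fold changes of 1.14 to 1.20. Without GLOko 2 the log2 fold change was 0.91, and without WT 3 it was 1.36, and the call was kept in both cases.

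The other 3 ligands were not called. *Vegfc*, whose product drives lymphatic sprouting, had 5.92 to 23.5 FPKM with a median of 8.32 in GLOko embryos, against 6.34 to 9.01 FPKM with a median of 7.36 in WT embryos (log2 fold change 0.35, adjusted p = 0.415). Its spread in GLOko came from GLOko 2, and the groups otherwise overlapped. *Vegfb*, linked in adult tissue to fatty acid uptake, had 33.0 to 53.6 FPKM in GLOko embryos, against 31.2 to 50.8 FPKM in WT embryos (log2 fold change 0.17, adjusted p = 0.481). *Pgf* had 1.25 to 2.01 FPKM in GLOko embryos, against 1.17 to 2.36 FPKM in WT embryos, with a log2 fold change of -0.15 (adjusted p = 0.664). It was the only one of the 9 genes with a negative estimate, and its 95% confidence interval ran from -0.59 to 0.28.

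All 3 receptor genes were called higher in GLOko embryos. *Flt1* had 3.02 to 11.8 FPKM with a median of 5.46 in GLOko embryos, against 1.81 to 3.87 FPKM with a median of 2.12 in WT embryos. Only GLOko 4 fell within the WT range, which WT 3 alone extended above 2.45 FPKM. The log2 fold change of 1.24 (SE 0.28, adjusted p = 0.0194) was the largest among the 9 genes in this fit, and the call was kept whichever single library was left out.

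*Kdr* had 10.7 to 25.3 FPKM with a median of 13.6 in GLOko embryos, against 7.60 to 9.92 FPKM with a median of 8.52 in WT embryos. The groups did not overlap, and GLOko 2 stood well above the other 5 embryos. The log2 fold change was 0.76 (SE 0.18, adjusted p = 0.0210), and without WT 2 the adjusted p was 0.0548. *Flt4*, which becomes a lymphatic receptor later but marks blood endothelium at this age, had 3.84 to 7.74 FPKM with a median of 4.95 in GLOko embryos, against 2.98 to 3.92 FPKM with a median of 3.16 in WT embryos. GLOko 4 was the lowest of its group and the only one below WT 4, the highest WT embryo. Its log2 fold change was 0.67 (SE 0.16, adjusted p = 0.0204), and its call too was kept whichever single library was left out.

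Of the neuropilins, *Nrp2* was called higher in GLOko embryos, while *Nrp1* lay just past the threshold and its call varied with the setting. *Nrp2*, in the mouse a co-receptor of veins and lymphatics, had 13.7 to 35.1 FPKM with a median of 18.0 in GLOko embryos, against 9.21 to 11.9 FPKM with a median of 11.7 in WT embryos. Every GLOko embryo lay above every WT embryo, and GLOko 2 was again the highest. The log2 fold change was 0.81 (SE 0.19, adjusted p = 0.0200), and without WT 2 the adjusted p was 0.0509.

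*Nrp1*, the co-receptor of arterial endothelium and of many axons, had 5.54 to 10.7 FPKM with a median of 8.58 in GLOko embryos, against 4.36 to 7.24 FPKM with a median of 6.48 in WT embryos. All GLOko embryos but GLOko 1 lay above every WT embryo. It was not called, with a log2 fold change of 0.54 (SE 0.17, adjusted p = 0.0617), and without GLOko 1 the log2 fold change was 0.66 and the adjusted p was 0.0249. It was also called in 6 other settings, with both tables in one fit (adjusted p = 0.00900), with sample weights (0.0165), without GLOko 1, GLOko 2 and GLOko 6 (0.0257), with limma-voom on recovered reads (0.0470), with a filter on a mean FPKM of 1 (0.0476) and without GLOko 1 and WT 4 (0.0495). GLOko 2, the highest embryo for *Kdr* and *Nrp2*, had 8.42 FPKM of *Nrp1*, below GLOko 4, 5 and 6.

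The number of called genes depended on how libraries that stood apart were treated. When the count of genes detected was entered as a covariate, only *Nrp2* was called (adjusted p = 0.0465), while the log2 fold changes of the 5 genes stayed between 0.68 and 1.17. When the 2 embryos with little heart muscle transcript (GLOko 1, WT 4) were left out, 3 of 9 genes were called higher, namely *Flt4*, *Nrp1* and *Nrp2*, and 542 of all genes were called, against 1833 with these embryos in. *Vegfa*, *Flt1* and *Kdr* then had log2 fold changes of 1.12, 1.21 and 0.81. Without GLOko 1, GLOko 2 and GLOko 6, the embryos with the fewest detected genes, 5 of 9 were called, with *Vegfa* lost (log2 fold change 0.88, adjusted p = 0.0594) and *Nrp1* gained.

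**Figure D2:**
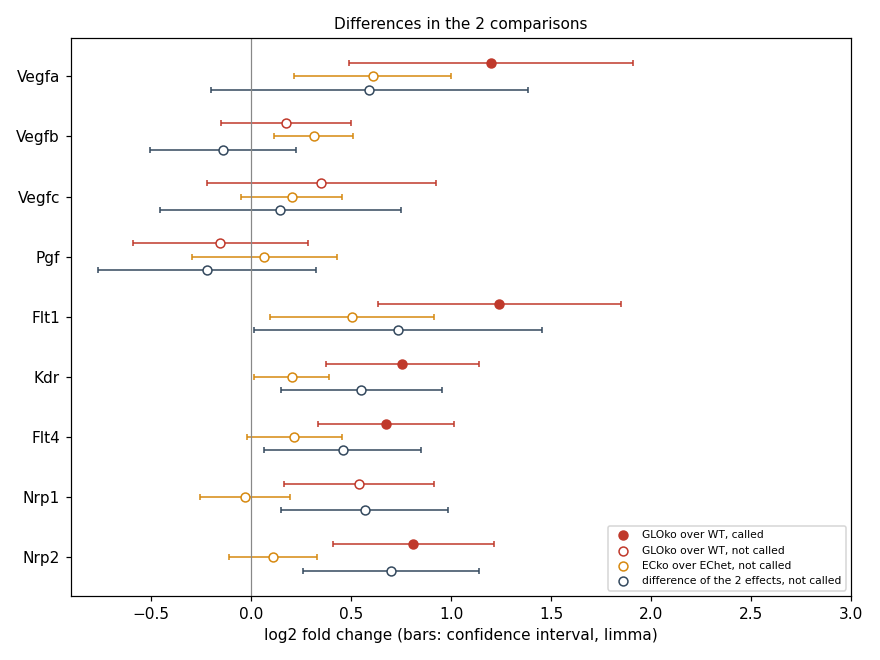
log2 fold change (horizontal axis, with 95% confidence intervals from limma) of each of the 9 genes (vertical axis) for GLOko over WT, for ECko over EChet and for the difference of the 2 effects. Filled points passed an adjusted p of 0.05 or less, which held for 5 genes in GLOko over WT and 0 genes in the other 2 sets.

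In ECko against EChet embryos 0 of 9 genes were called by limma, where 0.0971% of 17514 genes were called over the table, and limma-voom also called 0 of them. *Traf7* itself was not called by limma in these whole embryos (log2 fold change -0.24, adjusted p = 0.203). The paper found some ECko embryos close to the controls and proposes inefficient deletion as a probable reason. The absence of calls is therefore not shown to be an absence of effect. At an unadjusted p under 0.05 there were 4 of the 9 genes, *Vegfa*, *Vegfb*, *Flt1* and *Kdr*, all with higher estimates in ECko, against 14.5% of all genes. The median log2 fold change of the 9 genes was 0.20, and that of all genes tested was 0.00.

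*Vegfa* had 7.03 to 18.5 FPKM with a median of 11.0 in ECko embryos, against 6.66 to 8.21 FPKM with a median of 7.58 in EChet embryos. The EChet embryos were tightly grouped, and 6 of 7 ECko embryos lay above them, led by ECko 7, ECko 2 and ECko 3, with ECko 6 inside their range. The log2 fold change was 0.61 (SE 0.18, adjusted p = 0.201). *Vegfb* had 32.6 to 49.7 FPKM with a median of 41.2 in ECko embryos, against 29.1 to 35.3 FPKM with a median of 34.7 in EChet embryos. Again 6 of 7 ECko embryos lay above all EChet embryos, and the log2 fold change was 0.31 (SE 0.09, adjusted p = 0.194).

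*Flt1* had 2.29 to 6.00 FPKM with a median of 3.26 in ECko embryos, against 1.96 to 3.30 FPKM with a median of 2.39 in EChet embryos (log2 fold change 0.51, adjusted p = 0.261). The 3 embryos above all EChet embryos were ECko 2, 3 and 7, the same as were highest for *Vegfa*. *Kdr* had 9.79 to 14.2 FPKM in ECko embryos, against 8.58 to 11.9 FPKM in EChet embryos, and the log2 fold change was 0.20 (adjusted p = 0.307). The remaining genes lay closer together, with log2 fold changes of 0.22 for *Flt4*, 0.20 for *Vegfc*, 0.11 for *Nrp2*, 0.07 for *Pgf* and -0.03 for *Nrp1* and adjusted p values from 0.388 to 0.932. For *Nrp1* the 95% confidence interval ran from -0.25 to 0.20. ECko 7 was the highest of its group for 8 of 9 genes and ECko 6 the lowest for 7 of 9.

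The difference between the 2 effects was tested in a single fit over all 26 embryos. By limma 0 of 9 genes were called, where 2.26% of 16877 genes were called over both tables, and 5 of 9 had an unadjusted p under 0.05, against 21.6% of all genes. The estimate was largest for *Flt1* (0.74, adjusted p = 0.223) and *Nrp2* (0.70, adjusted p = 0.0703), followed by *Vegfa* (0.59, adjusted p = 0.387), *Nrp1* (0.57, adjusted p = 0.109), *Kdr* (0.55, adjusted p = 0.108) and *Flt4* (0.46, adjusted p = 0.163). It was 0.15 for *Vegfc* and ran the other way for *Vegfb* (-0.14) and *Pgf* (-0.22). Without GLOko 2 the estimate for *Vegfa* was 0.30. That a gene passed the test in GLOko and not in ECko embryos is therefore not shown to be a difference between them. The exceptions came from single libraries. *Nrp2* passed without GLOko 1 (adjusted p = 0.0476), without GLOko 4 (0.0397) or without ECko 7 (0.0400), and *Nrp1* passed without GLOko 1 (0.0496).

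Ratios within an embryo do not depend on the scaling of its library, and they are given here as a description. *Flt1* was 0.313 ± 0.0390 of the *Vegfa* level in GLOko embryos (SD, n = 6) and 0.300 ± 0.0512 in WT embryos (SD, n = 6), and 0.306 ± 0.0359 in ECko and 0.329 ± 0.0558 in EChet embryos (SD, n = 7 each). The 4 group means lay within 1 SD of each other, while *Vegfa* itself ranged from 9.77 to 48.6 FPKM within GLOko alone. *Flt1* to *Kdr* was 0.397 ± 0.0815 in GLOko and 0.281 ± 0.0879 in WT embryos, and 0.314 ± 0.0833 in ECko and 0.245 ± 0.0194 in EChet embryos. The highest WT ratio, 0.459 in WT 3, lay among those of the GLOko embryos, the lowest GLOko ratio was 0.257 in GLOko 4, and these were also the embryos with the highest WT and lowest GLOko *Vegfa*.

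*Pgf* to *Vegfa*, the 2 ligands that compete for the *Flt1* product, was 0.0367 to 0.128 in GLOko embryos, against 0.155 to 0.332 in WT embryos. The groups did not overlap, but how often ratios of other gene pairs do so was not examined. *Vegfa* was called higher in GLOko and *Pgf* was not called, so the ratio largely restates the difference in *Vegfa*. In ECko this ratio was 0.0836 to 0.238 and in EChet 0.139 to 0.289, with overlap. *Flt4* to *Kdr* hardly moved, with means of 0.363 in GLOko and 0.380 in WT embryos, and 0.395 in ECko and 0.393 in EChet embryos. *Nrp2* to *Nrp1* averaged 2.38 ± 0.937 in GLOko and 1.89 ± 0.249 in WT embryos, and GLOko 2 alone reached 4.16.

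**Figure D3:**
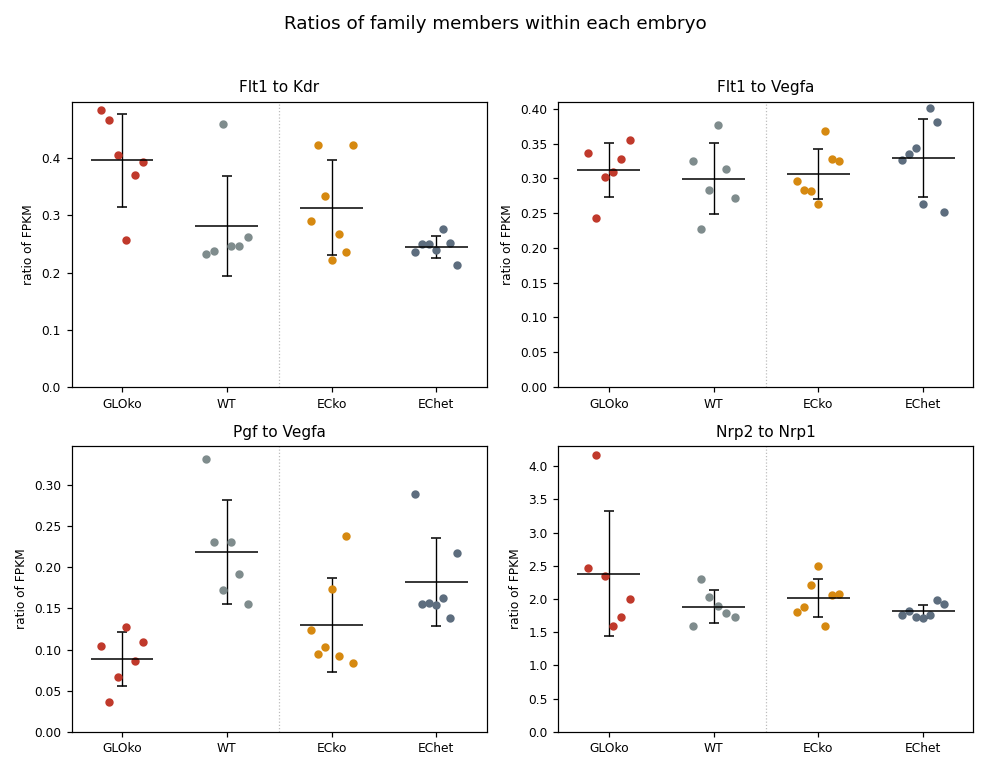
Ratios of FPKM between members within each embryo (vertical axes, linear, from 0) in the 4 groups (horizontal axes). Points are embryos, horizontal lines are means and bars are SD. *Flt1* to *Vegfa* has group means from 0.300 to 0.329, and every GLOko ratio of *Pgf* to *Vegfa* lies below 0.155, the lowest WT ratio.

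Because the receptors are carried largely by endothelium, and the neuropilins in part, the levels of the members were set against 19 endothelial markers of the same embryo. For the neuropilins and the ligands, a level relative to these markers need not be a level in endothelium. In RNA of whole embryos, fewer cells of a type and less RNA per cell cannot be told apart. The markers had a mean log2 level of 2.99 ± 0.39 in GLOko embryos (SD, n = 6) and 2.85 ± 0.11 in WT embryos (SD, n = 6), with the highest GLOko value, 3.69, in GLOko 2 and the lowest, 2.58, in GLOko 1. Of the 19 markers 2 were called higher in GLOko, against 5.42% of all genes, and the list median was 0.14. They were *Eng*, a co-receptor for bone morphogenetic proteins (log2 fold change 0.46, adjusted p = 0.0306), and *Sox7*, an endothelial transcription factor (0.79, adjusted p = 0.0319). Estimates were negative for 7 of the 19, lowest for *Cd34* (-0.37). The 2 junction genes most used to mark endothelium were not called. *Cdh5* had 24.9 ± 5.00 FPKM in GLOko and 20.8 ± 1.5 FPKM in WT embryos (log2 fold change 0.26, adjusted p = 0.185). *Pecam1* had 12.1 ± 6.26 FPKM in GLOko and 6.88 ± 1.66 FPKM in WT embryos (0.74, adjusted p = 0.0710), an estimate near that of *Kdr*. The paper reports equal *Cd31* (*Pecam1*) expression in GLOko and WT embryos.

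Relative to these markers, on the log2 scale, GLOko exceeded WT by 1.10 for *Flt1*, 1.06 for *Vegfa*, 0.67 for *Nrp2*, 0.62 for *Kdr*, 0.53 for *Flt4*, 0.40 for *Nrp1*, 0.21 for *Vegfc* and 0.03 for *Vegfb*, and the value for *Pgf* was -0.29. For *Kdr* the relative level was 0.67 to 1.18 in GLOko embryos, against 0.09 to 0.45 in WT embryos, and for *Nrp2* it was 1.13 to 1.49 in GLOko embryos, against 0.21 to 0.85 in WT embryos. When the test was run on libraries scaled to the markers, 3 of 9 genes were called higher, *Flt1*, *Kdr* and *Nrp2*, and only 307 of all genes. In ECko embryos the markers had a mean log2 level of 2.91 ± 0.10, against 2.79 ± 0.09 in EChet embryos (SD, n = 7 each), and 0 of 19 were called by limma, with 5 at an unadjusted p under 0.05, against 14.5% of all genes. Relative to them ECko exceeded EChet by 0.49 for *Vegfa* and 0.38 for *Flt1*, and by 0.08 for *Kdr* and 0.09 for *Flt4*.

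**Figure D4:**
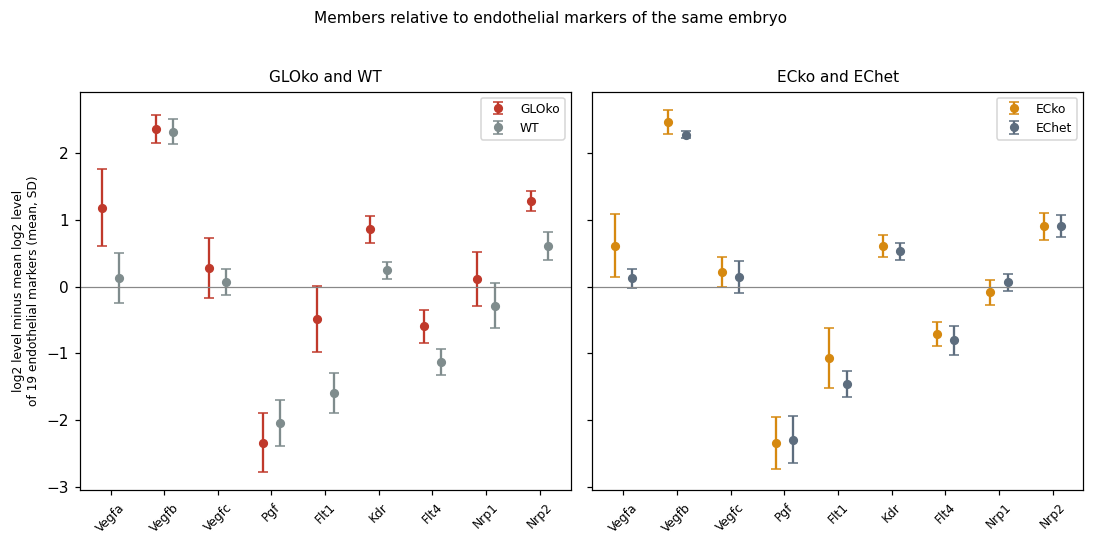
log2 level of each of the 9 genes (horizontal axes) minus the mean log2 level of 19 endothelial markers in the same embryo (vertical axes), for GLOko and WT (left) and ECko and EChet (right). Points are group means and bars are SD. The GLOko mean lies above the WT mean by 1.10 for *Flt1* and 0.67 for *Nrp2*.

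Markers of other cell types also moved with some of these groups, and their part in the results was not tested. Of 10 markers of neurons and neural progenitors 3 were called lower in GLOko (*Nes*, *Neurog2* and *Sox1*). Over all genes 5.01% were called lower and 5.42% higher. The neural list summed to 76.6 to 197 FPKM in GLOko, against 167 to 249 FPKM in WT embryos. For trophoblast, a rich source of *Flt1* and *Pgf* transcript in the placenta, 3 of 15 markers could be tested. *Ascl2* was called higher (log2 fold change 1.95, adjusted p = 0.0346), while *Prl3b1* (-0.87) and *Plac1* (-0.03) were not called. The whole list summed to only 3.80 to 7.70 FPKM in GLOko and 2.49 to 4.81 FPKM in WT embryos. *Tpbpa* and *Prl2c2*, which define trophoblast lineages, were at 0 in all libraries of both groups. Of 15 heart muscle, 8 erythroid and 10 yolk sac and gut endoderm markers 0 were called by limma, with 0, 0 and 1 at an unadjusted p under 0.05, and 0 of 3 lymphatic, 6 mural cell and 5 tested macrophage markers were called, with 0 at an unadjusted p under 0.05. Over all genes 4969 of 17573 had an unadjusted p under 0.05 by limma in GLOko over WT. In ECko embryos 0 markers of the cell types above were called, where 0.0971% of all genes were called. There 1 heart muscle, 2 trophoblast and 1 macrophage marker had an unadjusted p under 0.05, against 14.5% of all genes. The estimates of all 15 heart muscle markers were negative there, with a list median of -0.99 and a range of -1.91 to -0.39, and ECko 3, low in these markers, is among the 7 embryos. The median of the mural cell markers was -0.33.

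The genes around the family were followed in lists ordered by role. Among 11 further ligands and ligand-processing genes, which include *Vegfd*, the *Vegfc* proteases and cofactor and the semaphorins that share the neuropilins, 1 was called higher in GLOko, *Ctgf*, a matrix protein that binds VEGF-A (log2 fold change 0.62, adjusted p = 0.0450), and 0 lower, with a list median of 0.39, where 5.42% of all genes were higher and 5.01% lower. *Vegfd* had 1.51 ± 1.05 FPKM in GLOko and 1.07 ± 0.263 FPKM in WT embryos and was not called.

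Of 21 partners and trafficking proteins of the receptors 5 were called higher and 1 lower in GLOko, against 5.42% and 5.01% of all genes, with a list median of 0.32. Those higher were *Itgav*, the integrin subunit that pairs with the *Itgb3* product beside the *Kdr* product (0.67, adjusted p = 0.0115), *Plxna3* (0.69) and *Plxna2* (0.37), plexins that signal for neuropilin-bound semaphorins, *Myo6*, a motor of endocytic vesicles (1.05), and *Sdc2*, a heparan sulfate carrier (0.46). *Gipc1*, the adaptor that links *Nrp1* product to that motor, was lower, with a log2 fold change of -0.48 (adjusted p = 0.0464). For *Itgav*, *Plxna2* and *Gipc1* the difference between the GLOko and ECko effects passed as well (0.66, 0.43 and -0.69), and it passed for *Sema3c* (0.44), a neuropilin ligand, and *Mef2c* (0.82), a transcription factor, in the other lists, where 2.26% of all genes passed that test.

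Of 50 tested genes of receptor signal transduction 4 were called higher and 2 lower, shares near the 5.42% and 5.01% of all genes, with a list median of 0.11. *Map2k1* rose by 0.63 on the log2 scale (adjusted p = 0.00759) while its paralog *Map2k2* fell by 0.71 (adjusted p = 0.0220), both kinases just above ERK. *Braf* (0.55), *Iqgap1*, a scaffold of this cascade (0.48), and *Nfatc2*, a calcium-dependent transcription factor (0.87), were higher, and *Akt1*, a survival kinase, fell by 0.56. Of 18 feedback inhibitors, with a list median of 0.19, 3 were higher, *Cbl*, a ubiquitin ligase of active receptors (0.50), *Spry1*, a damper of ERK signalling (0.40), and *Thbs1*, an antiangiogenic matrix protein (1.00). Another 2 were lower, *Vash1*, an inhibitor secreted by endothelium (-0.60), and *Ptpn1*, a phosphatase that acts on the *Kdr* product (-0.83).

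Of 20 tested genes that VEGF is known to induce in endothelium 5 were called higher and 1 lower in GLOko, with a list median of 0.53. Over all genes 5.42% were called higher and 5.01% lower. *Esm1*, a tip cell proteoglycan, had 5.59 ± 4.18 FPKM in GLOko and 1.23 ± 0.927 FPKM in WT embryos (log2 fold change 2.06, adjusted p = 0.0148). *Kcne3*, a potassium channel subunit of tip cells, had 4.60 ± 1.62 FPKM in GLOko and 1.51 ± 1.66 FPKM in WT embryos (1.89, adjusted p = 0.0168). *Igfbp3* (1.02), *Apln* (0.55) and *Mef2c* (0.67) were the others. *Nos3*, the endothelial nitric oxide synthase, was lower, with 1.59 ± 0.578 FPKM in GLOko and 2.89 ± 0.247 FPKM in WT embryos (-0.88, adjusted p = 0.0289). *Dll4*, *Angpt2* and *Egr1*, which belong to the same list, had log2 fold changes of 0.52, 0.58 and 0.62 and were not called.

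The last list, 24 genes of the oxygen response, was like the others written with earlier results of these data known. The paper names *Bnip3* as higher in GLOko, and *Ndufa4l2* and *Bhlhe40* as higher in ECko embryos. The rise of this list was therefore in part known in advance. It was the list that moved most, with a median of 1.80 in GLOko. Of its 24 genes 23 were called higher and 0 lower, against 5.42% and 5.01% of all genes. Those of smallest p were *Pdk1* (1.64) and *Bnip3* (2.37), *Slc2a1*, the main glucose transporter of the embryo (1.32), and *P4ha2*, a collagen prolyl hydroxylase (1.89). The list summed to 2838 to 5249 FPKM in GLOko embryos, lowest in GLOko 4 and highest in GLOko 2, against 1479 to 2727 FPKM in WT embryos, highest in WT 3. *Ldha* and *Pgk1* weighed most in these sums, with means of 1192 and 1154 FPKM in GLOko and 826 and 625 FPKM in WT embryos. The order of embryos by this sum is thus mainly that of these genes. GLOko 4 and GLOko 2 were also lowest and highest for *Vegfa* and *Flt1* in GLOko, and WT 3 was highest for both in WT. GLOko 2 and WT 3 also had the highest sums of several other lists, among them the neural and macrophage markers. The part of the oxygen response in the level of the 9 genes was not tested.

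In ECko embryos 3 of these 24 genes were called higher, *Higd1a* (0.72), *Pgk1* (0.69) and *Ldha* (0.50), where 0.0971% of all genes were called in either direction. At an unadjusted p under 0.05 there were 22, against 14.5% of all genes, and the list median was 0.80. The list summed to 1840 to 3383 FPKM in ECko embryos, lowest in ECko 6 and highest in ECko 3, against 1461 to 1923 FPKM in EChet embryos. *Ldha* and *Pgk1* weighed most here too, with means of 1037 and 868 FPKM in ECko and 732 and 532 FPKM in EChet embryos. *Vegfa* was lowest in ECko 6 and *Flt1* in ECko 4, and both were highest in ECko 7. In the other 5 lists 0 genes were called by limma in ECko, with 3 of 11 further ligands, 3 of 21 partners, 11 of 50 signal transduction genes, 5 of 18 feedback inhibitors and 9 of 20 induced genes at an unadjusted p under 0.05, against 14.5% of all genes.

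**Figure D5:**
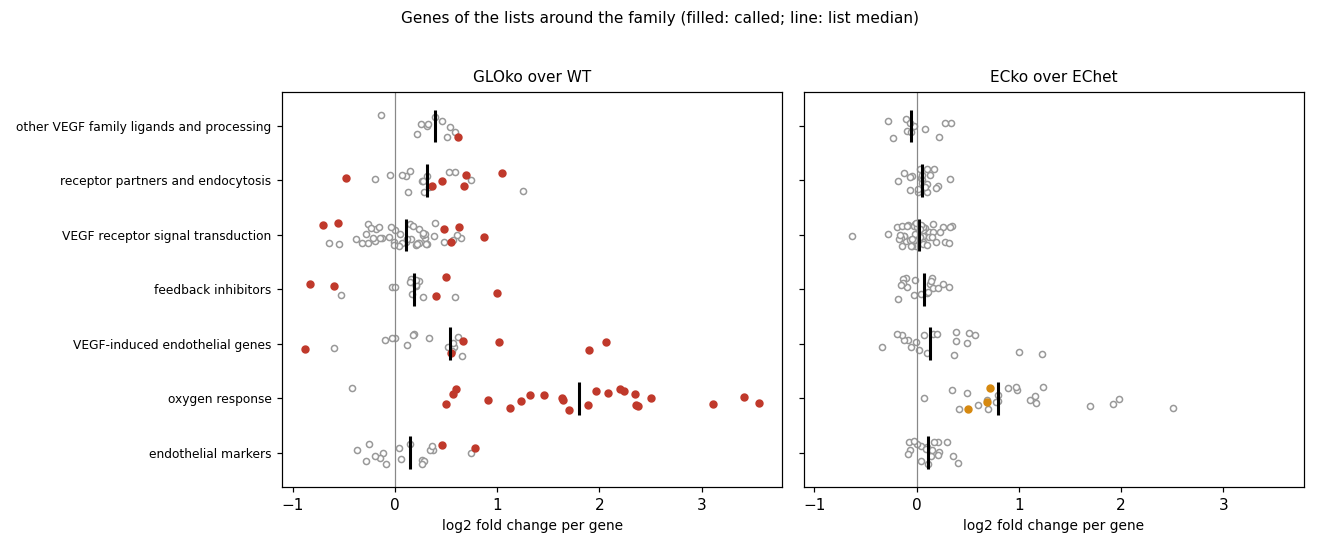
log2 fold change of each tested gene (horizontal axes) in 6 lists around the family and in the endothelial markers (vertical axis), for GLOko over WT (left) and ECko over EChet (right). Filled points passed an adjusted p of 0.05 or less and the vertical lines are list medians. The oxygen response stands at a median of 1.80 in GLOko and 0.80 in ECko, and the endothelial markers at 0.14 and 0.11.

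Within groups the members differed in how much they varied. The SD of *Vegfa* on the log2 scale was at percentile 92.4 of 11837 genes in GLOko, 92.0 in WT, 95.0 in ECko and 32.7 in EChet embryos. That of *Flt1* was at percentile 87.4 in GLOko, 90.5 in WT, 94.2 in ECko and 84.9 in EChet embryos. High spread was not particular to these genes. *Pgf* was at percentile 41.1 in GLOko, 91.0 in WT, 86.9 in ECko and 90.9 in EChet embryos. *Vegfc* was at 88.9 in GLOko, 68.7 in WT, 78.3 in ECko and 76.4 in EChet embryos.

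The genes most like each member were sought by the Pearson r of log2 levels, each centred on its group mean, over the 26 embryos and 11837 genes, as a description. Embryos share depth, stage and tissue makeup in such a measure. For *Vegfa* the nearest were *P4ha1* (r = 0.963), *Zfp395* (0.952) and *Alkbh5* (0.947), and for *Flt1* they were *Zfp395* (0.927), *Dlc1* (0.921) and *P4ha1* (0.916), so that ligand and receptor shared 2 of 3 neighbours. *Kdr* was nearest to *Adgrf5*, an endothelial adhesion receptor (0.932), *Lamb1*, a laminin chain (0.925), and *Sptbn1* (0.919). *Nrp2* was nearest to *Nav2* (0.931), *Lamb1* (0.910) and *Nid2* (0.910), the last of these a basement membrane protein. *Flt4* was nearest to *Sp1* (0.861), *Kdr* (0.860) and *Aff1* (0.850).

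The remaining members had other neighbours. *Nrp1* was nearest to *Emp2* (0.837), *Epas1* (0.830), which encodes a HIF subunit of endothelium, and *Col5a2* (0.827). *Vegfb* was nearest to *Pkn3* (0.884), *Triobp* (0.880) and *Lmf1* (0.873), and *Vegfc* to *Foxj3* (0.906), *Ift172* (0.902) and *Npc1* (0.900). For *Vegfc* these values fell to 0.805, 0.771 and 0.789 without GLOko 2. *Pgf* had no close neighbour, with *Tmem170b* at 0.694, *Prtn3* at 0.657 and *Elac1* at 0.640.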

How the data were processed

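Whole embryos at E9.5 were sequenced, and the authors deposited FPKM values of 54532 genes in 2 tables, 1 for GLOko and WT and 1 for ECko and EChet embryos. The submitters' processing notes name STAR and mm10, and their versions and the gene annotation are not given in the sources used here. Reads behind the FPKM were recovered as whole multiples of the step of each library, for 100.0% of values within 0.01 of a read. Library totals as given in the report set the precision of low values, and embryos of a group varied by more than counting error.

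Each library's FPKM was divided by its median-of-ratios factor (0.9701 to 1.0188). Genes averaging 0.1 FPKM or more in a table were tested, on log2 values after adding 0.1, with limma 3.58.1 in R 4.3.3 (trend and robust settings, two-sided, Benjamini-Hochberg over all genes tested), each table alone. Fold changes are on this log2(FPKM + 0.1) scale, which understates changes of low genes. The difference of effects came from all 26 libraries in a single fit. The study tested read counts with a count model, for which limma on log values stands in here. Figures and tables were made with Python 3.11.15, pandas 2.3.3 and matplotlib 3.10.9.

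The 9 genes and the lists were chosen with earlier results of these data known. In each list the called genes of smallest p were named, at most 4 in each direction, and for each member the 3 genes of highest r. *Sdc2*, *Mef2c* in GLOko over WT, *Cd34*, *Cdh5*, *Pecam1*, *Vegfd*, *Dll4*, *Angpt2* and *Egr1* were named after their values were seen. Alternatives were other pseudocounts, filters, scalings and weights, limma-voom on recovered reads, a replicate block, detected genes as a covariate, and libraries left out.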

Additional observations from a re-analysis of the deposited data

Results flagged for a closer look

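Within groups, 9 of 36 sets of embryos held a sample far from the others by Dixon's test, where chance gives about 1 in 20 of independent sets. These sets were not independent, since they were the 9 genes in the same 4 groups of embryos. GLOko 2 was the highest of its group for *Vegfa* at 48.6 FPKM (next 19.4 FPKM), *Vegfc* at 23.5 FPKM (next 10.1 FPKM), *Kdr* at 25.3 FPKM (next 14.3 FPKM) and *Nrp2* at 35.1 FPKM (next 19.3 FPKM). WT 3 was the highest of its group for *Vegfa* at 13.6 FPKM (next 7.98 FPKM), *Vegfb* at 50.8 FPKM (next 35.0 FPKM) and *Flt1* at 3.87 FPKM (next 2.45 FPKM). WT 4, which was low in heart muscle markers, was the highest for *Flt4* at 3.92 FPKM (next 3.21 FPKM). ECko 5 was the lowest for *Pgf* at 0.772 FPKM (next 1.37 FPKM). GLOko 2 and WT 3 were also each the highest of their group in the summed FPKM of the endothelial markers and of the oxygen response list. The same held for the neural and macrophage markers, the further ligands, the receptor partners and the VEGF-induced genes. It did not hold for the heart muscle, erythroid, mural cell and trophoblast markers or the feedback inhibitors. The part of any of these lists in the values was not tested.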

How the results depend on the processing

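The 5 genes called higher in GLOko became 3 when libraries were scaled to the endothelial markers, 1 when the count of genes detected was entered as a covariate, and 3 without GLOko 1 and WT 4, and between 2 and 5 when single libraries were left out, with 2 without WT 2. The count was 6 with a filter on a mean FPKM of 1, sample weights, limma-voom or both tables in one fit (*Nrp1* gained) and 4 without a filter or without trend and robust settings (*Vegfa* lost, adjusted p = 0.0594 and 0.0584). None of the 9 genes was called lower in GLOko and none was called in ECko under any alternative. Over all genes the 1833 called in GLOko became 307 with scaling to the endothelial markers, 461 with the covariate, 542 without GLOko 1 and WT 4, 1208 without a filter, 2799 with sample weights, 4750 in a fit over both tables and 731 to 2491 with single libraries left out. The 17 called in ECko became 0 to 31, and 3 to 51 with single libraries left out, and the 382 called in the difference became 3 to 653, and 21 to 1227 with single libraries left out. For the difference of effects the count of 0 became 0 to 2 when single libraries were left out, with 2 without GLOko 1 and 1 without GLOko 4 or ECko 7. Small estimates changed sign with the setting. In ECko, scaling to the endothelial markers gave -0.053 for *Pgf* and -0.0088 for *Nrp2*, and leaving out single libraries gave -0.085 to 0.029 for *Nrp1*. For *Vegfc* the difference of effects was -0.15 without GLOko 1, GLOko 2 and GLOko 6 and -0.12 to 0.29 when single libraries were left out. The cause of these shifts was not tested. The labels do not say whether replicate numbers pair the embryos. Deviations from the group mean correlated by -0.05 to 0.09 between same-numbered GLOko and WT embryos and by -0.08 to 0.11 between ECko and EChet embryos. The same number was the best match for 1 of 6 GLOko and 2 of 7 ECko embryos. No pairing was seen, but such correlations cannot exclude one. With the replicate block 4 of 9 genes were called higher in GLOko (*Flt4* was lost) among 1010 genes in all, 0 in ECko among 0 genes, and 0 in the difference of effects among 317 genes. Depth limits *Pgf* most, which rested on 48 to 163 reads per library.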
